A study of Homo sapiens with 40 samples.

Results

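The genes described here were 10 members of the BCL2 family, which sets whether a stressed cell survives or dies. They were taken by name from a count table of 44584 gene names, where each of the 10 had 1 row of its own. By role they were the pro-survival genes BCL2, BCL2L1 (encoding BCL-XL) and MCL1, the BH3-only genes BCL2L11 (BIM), BMF, BBC3 (PUMA), PMAIP1 (NOXA), BIK and HRK, and the effector BAX. All 10 passed the filter on low counts, and all 10 were tested in every comparison.

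The libraries came from BT474, a breast ductal carcinoma line with amplified HER2 that responds to the HER2 antibody trastuzumab, and from BT474R, a resistant line that is a single clone of BT474 grown in trastuzumab for weeks. Cells of both lines were starved of serum and collected at once (T0), or given fresh starvation medium with epidermal growth factor (EGF, a ligand of EGFR, 50 ng/mL), heregulin (HRG, a ligand of HER3 and HER4, 10 ng/mL) or water as vehicle, and collected after 1, 12 or 24 h. This gave 20 groups of 2 libraries, 40 in all. Starvation was thus shared by every group, T0 included, the ligands were given at different doses, and resistance was represented by 1 clone. The labels number the 2 libraries of a group, and the study treated cells in duplicate, so each p-value measures the spread between such duplicates.

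Mitochondrial apoptosis starts when effectors such as BAX open pores in the outer mitochondrial membrane and release cytochrome c. Pro-survival proteins hold the effectors and their activators in check, and BH3-only proteins, which are made or released under stress, occupy the groove of the pro-survival proteins. Several of these proteins, MCL1 and NOXA above all, are short-lived, and BIM, BMF and PUMA are known to respond to the loss of growth factor signals.

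Total counts ran from 16794594 to 33387936 per library. ERBB2, the HER2 gene, was high in both lines at T0. It was at 8043 ± 139 CPM (counts scaled to library size, SD, n = 2) in BT474 and 9316 ± 209 CPM in BT474R. The luminal genes did not go one way between the lines. At T0 KRT8 (log2 fold change -0.53) and KRT18 (-0.38) were lower in BT474R. KRT19 (0.29) and EPCAM (1.07) were higher, as was GRB7 (0.49) of the same marker list, and ESR1 differed little (-0.04). The basal keratins were low at T0, KRT5 at 0.16 and 0.43 CPM and KRT14 at 0.049 and 0.023 CPM. KRT5 was higher in BT474R with EGF at 12 h, at a mean of 2.42 CPM. GATA3, a luminal transcription factor, was far lower in BT474R at T0, at 472 CPM in BT474 and 39.7 CPM in BT474R (log2 fold change -3.57). Of the markers of other cell types, PTPRC, CD3E, DCN, COL1A2 and PECAM1 were at or near 0 at T0, whereas COL1A1 was at 86.9 and 200.1 CPM, VIM at 39.2 and 30.5 CPM, VWF at 20.9 and 9.46 CPM and CD68 at 2.47 and 1.79 CPM in BT474 and BT474R. Some markers moved after T0 in BT474R. At 24 h VIM was at means of 85.0 CPM with vehicle and 98.1 CPM with EGF. GATA3 was then at 43.7 and 10.9 CPM and ESR1 at 102.8 and 42.6 CPM. The part of the markers in the results was not tested. These are bulk libraries, so less RNA per cell and fewer cells with that RNA cannot be told apart.

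At T0 the lines differed in 7 of the 10 genes, and the differences did not follow the roles. BCL2, BCL2L1, BBC3 and PMAIP1 were lower in BT474R, and BCL2L11, BMF and BIK were higher. The lines differed widely in general: 46.9% of the 24641 genes tested were called in this comparison, and 65.4% of the genes at 1 CPM or more.

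The widest gap was in BCL2, the founding pro-survival gene. It stood at 49.6 and 47.7 CPM in the BT474 libraries and at 2.34 and 2.06 CPM in the BT474R libraries, where it rested on 39 and 44 counts. The log2 fold change was -4.48 (SE 0.16, adjusted p = 2.33e-23), where this and every later adjusted p is from the quasi-likelihood F test of edgeR, corrected by Benjamini-Hochberg across the genes of the fit. The gap held across all groups, since no BT474R library exceeded 4.27 CPM and no BT474 library fell below 44.4 CPM.

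BCL2L1, whose product guards the mitochondrial membrane as BCL2 does, was at 142.5 and 140.4 CPM in BT474 and 92.5 and 94.2 CPM in BT474R (log2 fold change -0.60, SE 0.04, adjusted p = 3.11e-14). An antisense gene overlaps it and the strand setting of the counting was not stated, so reads of the pair cannot be told apart. MCL1, the remaining pro-survival gene, did not pass the test. It was at 503.9 and 476.2 CPM in BT474 and at 495.7 and 516.5 CPM in BT474R, with overlapping libraries and a log2 fold change of 0.05 (95% interval -0.05 to 0.14).

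Among the BH3-only genes, BCL2L11 was 2.78-fold higher in BT474R. Its product BIM binds every pro-survival member and can activate BAX. It was at 59.9 and 57.8 CPM in BT474 and at 164.4 and 163.4 CPM in BT474R (log2 fold change 1.48, SE 0.05, adjusted p = 1.58e-24). BMF, which is held at the cytoskeleton until released, was at 42.5 and 41.5 CPM in BT474 and at 75.9 and 79.3 CPM in BT474R (log2 fold change 0.89, SE 0.08, adjusted p = 4.25e-12). BIK, a BH3-only gene of the endoplasmic reticulum, was higher by a smaller step, with 17.8 and 17.3 CPM against 23.8 and 23.1 CPM (log2 fold change 0.41, SE 0.08, adjusted p = 3.32e-05).

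The other BH3-only genes called were lower in BT474R. PMAIP1, whose product NOXA binds MCL1 and promotes its decay, was at 15.7 and 17.9 CPM in BT474 and at 4.62 and 4.40 CPM in BT474R (log2 fold change -1.90, SE 0.16, adjusted p = 8.08e-13). BBC3, a p53 target, was at 14.0 and 15.3 CPM in BT474 and at 10.1 and 10.3 CPM in BT474R (log2 fold change -0.52, SE 0.13, adjusted p = 0.00104). For each of the 7 genes called, the libraries of the lines did not overlap. How many of all genes did so was not counted, so this adds no support to the calls.

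HRK and BAX did not pass the test. HRK, best known in neurons, was close to the limit of detection: it had 14 and 3 counts at T0 in BT474 and 14 and 14 in BT474R, against a detection floor of 3 counts. Its adjusted p of 0.0591 depended on the BT474 pair, since the log2 fold change of 1.01 became 2.26, and was called, without BT474 replicate 1, and 0.42, not called, without BT474 replicate 2. BAX was at 28.8 and 26.4 CPM in BT474 and 25.0 and 27.5 CPM in BT474R (log2 fold change -0.07, 95% interval -0.28 to 0.14).

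**Figure D1:**
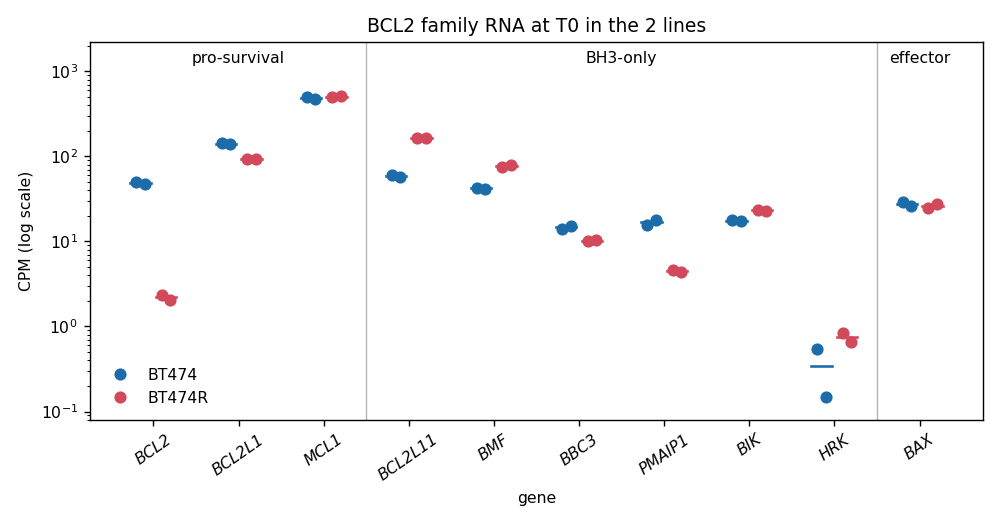
CPM of each gene at T0 on a log axis, with 1 point per library (2 per line) and a bar at the mean. BCL2 and PMAIP1 sit lower in BT474R, at 2.20 and 4.51 CPM on average against 48.6 and 16.8, BCL2L11, BMF and BIK sit higher, and the MCL1 and BAX points of the lines overlap.

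BCL2 and PMAIP1, the 2 members with the largest drop, both lie on the long arm of chromosome 18. BCL2 is annotated (GENCODE release 44, GRCh38) at chr18:63123346-63320128 on the minus strand, and PMAIP1 at chr18:59899996-59904305 on the plus strand. The genes around them were not lower as a group. This look at the neighbours was chosen after the T0 values were known. Of the 10 nearest genes with a mean of 1 CPM or more around BCL2, 5 on each side, 3 had a value below 0 and 1 of those was called, with a median log2 fold change of 0.33 and a range from -0.36 to 1.32. KDSR, the next gene to BCL2, was at 0.30, VPS4B at 0.40 and PHLPP1 at 0.43. Around PMAIP1 the median was 0.34, from -0.24 to 2.32, and 4 of its 10 neighbours were also neighbours of BCL2. By their midpoints the neighbours lay 27.3 to 4191.5 kb from BCL2 and 556.5 to 2651.1 kb from PMAIP1. They say nothing of the DNA nearer to each gene. Over the 190 genes of chromosome 18 at that level the median was 0.16. Copy number was not measured in these libraries.

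**Figure D2:**
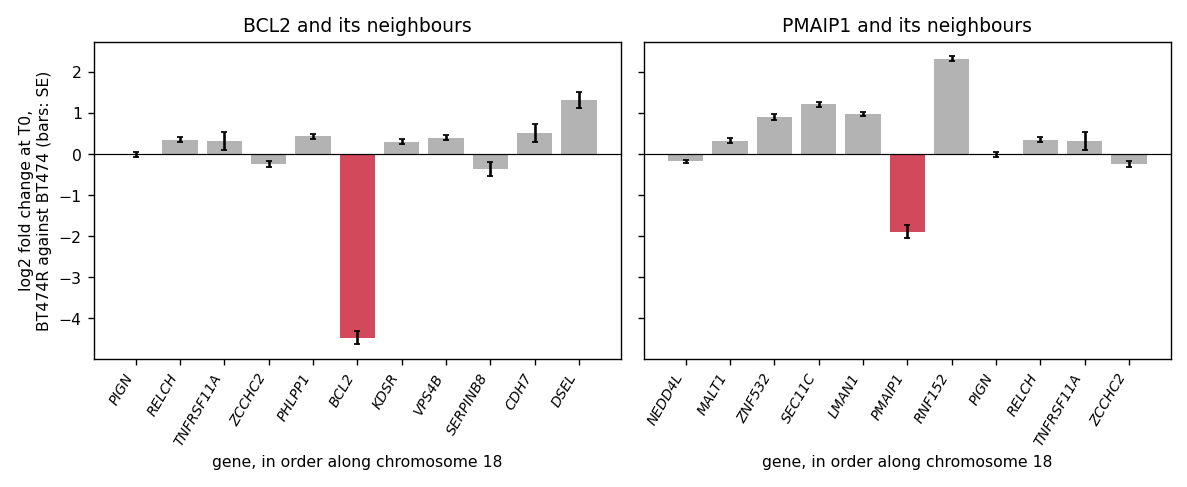
Log2 fold change at T0, BT474R against BT474, for BCL2 and PMAIP1 (red) and 5 neighbouring genes on each side (grey), in chromosomal order, with standard errors. BCL2 stands at -4.48 and PMAIP1 at -1.90, while their neighbours range from -0.36 to 2.32.

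Genes were ranked by level per kilobase of transcript. By that measure MCL1 led in both lines at T0, at 124 CPM per kb of its canonical transcript in BT474 and 128 in BT474R, and HRK was last. BCL2L1 came next at 54.9 and 36.3 CPM per kb. BAX was at 34.7 and 33.1, BIK at 18.5 and 24.6, and BCL2L11 at 11.5 and 32.1 CPM per kb. In BT474R the libraries of BCL2L1, BAX and BCL2L11 lay between 31.5 and 36.6 CPM per kb, where BAX overlapped BCL2L11, and in BT474 PMAIP1 overlapped both BMF and BBC3. BCL2 had rank 9 of the 10 in each line, at 7.07 and 0.32 CPM per kb. With all annotated exons as the length, an alternative chosen after seeing the data, MCL1 stayed first and BCL2 and HRK last, whereas BAX and BIK exchanged ranks 3 and 4 in BT474. In BT474R BAX moved from rank 3 to 6, BCL2L1 from 2 to 4 and BIK from 5 to 2.

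Several members differed between vehicle and T0. Vehicle cells had water, fresh starvation medium and more hours of starvation, which cannot be told apart here. After 1 h of vehicle 4 of the 10 were called against T0 in BT474, where 6.61% of all genes were, and 2 in BT474R, where 2.24% were. Among genes at 1 CPM or more these shares were 10.6% and 3.56%. DESeq2 called 2 members in BT474 and 2 in BT474R. BBC3 moved furthest in both lines. In BT474 it went from 14.0 and 15.3 CPM at T0 to 28.6 and 30.2 CPM (log2 fold change 1.02, SE 0.09, adjusted p = 8.69e-11). In BT474R it went from 10.1 and 10.3 to 21.7 and 22.7 CPM (log2 fold change 1.12, SE 0.13, adjusted p = 1.71e-05). BCL2L1 rose beside it, to 178.9 and 176.5 CPM in BT474 (0.34 on the log2 scale, SE 0.04, adjusted p = 1.27e-07) and to 127.6 and 130.2 CPM in BT474R (0.47, SE 0.05, adjusted p = 3.85e-06). A pro-survival and a BH3-only gene thus rose in the same hour in cells that received no ligand. BAX was also called in BT474 (0.26, adjusted p = 0.0419) and BMF was called lower (-0.25, adjusted p = 0.0378), but each call was lost when any of the 4 libraries was left out, with values from 0.20 to 0.30 for BAX and from -0.30 to -0.20 for BMF.

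By 12 h of vehicle no member was called against T0 in either line by edgeR or by DESeq2. At an unadjusted p under 0.05 there were 3 in BT474 and 0 in BT474R, beside 4240 of 25146 and 2320 of 24287 genes. At the adjusted threshold 6.41% and 1.13% of all genes were called. At 24 h, 4 were called in BT474 (11.4% of all genes) and 5 in BT474R (13.7%). Among genes at 1 CPM or more the shares at 24 h were 18.4% and 21.5%. BCL2L1 was below T0 in both lines, by -0.14 (adjusted p = 0.0203) and -0.25 (adjusted p = 0.00216). The BT474 call was lost without any of its 4 libraries, with values from -0.16 to -0.10. BBC3 went opposite ways, to 10.3 and 10.7 CPM in BT474 (-0.48, adjusted p = 0.0013) and to 12.2 and 15.9 CPM in BT474R (0.46, adjusted p = 0.0325). The difference between the lines was not tested, and the BT474R value was 0.25 without the second vehicle library and was also not called without either T0 library. BMF rose in BT474R from 75.9 and 79.3 to 100.7 and 101.8 CPM (0.39, SE 0.07, adjusted p = 0.000633).

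The other calls at 24 h were small. In BT474 BCL2 was 0.25 higher (adjusted p = 0.00198) and MCL1 0.16 lower on the log2 scale (log2 fold change -0.16, adjusted p = 0.0015), the latter not called without T0 replicate 1 or vehicle replicate 1, at -0.12 and -0.11. In BT474R BIK (-0.25, adjusted p = 0.0371) and BAX (0.35, adjusted p = 0.0486) were called, and both calls were lost without any of the 4 libraries, with values from -0.26 to -0.23 and from 0.28 to 0.43. Each ligand was therefore compared with the vehicle of its own time point, and the EGF and HRG comparisons shared those vehicle libraries.

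Stretches of the promoters of BBC3 and BAX are shown because these known p53 targets were the members with a match to the E-box letters. The windows run from 250 bases before to 50 after the RefSeq start (GRCh38.p14), 10 windows for 8 of the members, with none in the table for MCL1 and BIK. The BBC3 stretch, chr19:47232768-47232907 on the minus strand, carries the E-box CACGTG and the AP-1 letters TGACTCA in reverse, and the BAX stretch, chr19:48954730-48954814 on the plus strand, carries the E-box letters at 2 of the 4 places in its window. Capitals mark the matches.
BBC3: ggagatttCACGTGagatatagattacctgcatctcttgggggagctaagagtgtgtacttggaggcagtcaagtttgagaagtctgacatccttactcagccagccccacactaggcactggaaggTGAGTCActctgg
BAX: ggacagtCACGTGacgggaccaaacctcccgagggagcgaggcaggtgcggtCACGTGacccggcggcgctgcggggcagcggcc
Of 35116 promoters of the same length, 7.26% held the E-box letters and 4.95% the AP-1 letters on either strand. The cyclic AMP response element TGACGTCA, in 1.85% of all promoters, was in none of the 10 windows. The forkhead core GTAAACA, the letters that FOXO factors recognise, was in 3.42% of all promoters and, among the members, in BCL2L11 alone, shown here at chr2:111120669-111120718 on the plus strand.
BCL2L11: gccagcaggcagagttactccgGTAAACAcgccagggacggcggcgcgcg
A match of letters is a description of the sequence, and binding was not measured in these libraries.

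MCL1 was the member that answered both ligands at 1 h in both lines. It was the one member called in each of these 4 comparisons, in which 2.19% (EGF) and 2.77% (HRG) of all genes were called in BT474 and 0.457% and 0.169% in BT474R. MCL1 is made and destroyed quickly, and its gene is known to respond to growth factor signals. In BT474 the vehicle libraries at 1 h were at 518 and 518 CPM, the EGF libraries at 992 and 1017 CPM and the HRG libraries at 1139 and 1129 CPM. EGF raised it 1.91-fold (log2 0.93, SE 0.04, adjusted p = 2.84e-22) and HRG 2.17-fold (log2 1.12, SE 0.04, adjusted p = 5.8e-25). The EGF and HRG libraries did not overlap, and HRG was above EGF by 0.19 (SE 0.03, adjusted p = 0.00416). MCL1 was the 1 member called there, against 0.139% of all genes and 0.234% of those at 1 CPM or more. This last call was lost without HRG replicate 1, HRG replicate 2 or EGF replicate 1, with values from 0.17 to 0.19.

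In BT474R the MCL1 libraries were at 503 and 511 CPM with vehicle, 768 and 831 CPM with EGF and 713 and 633 CPM with HRG. The rise was 1.58-fold with EGF (log2 0.66, SE 0.06, adjusted p = 3.35e-07) and 1.33-fold with HRG (log2 0.41, SE 0.06, adjusted p = 0.000688). The HRG effect was smaller in BT474R than in BT474 by 0.72 on the log2 scale (difference of log2 effects -0.72, SE 0.07, adjusted p = 3.74e-09). MCL1 was the 1 member called in that test, against 0.544% of all genes and 0.869% of those at 1 CPM or more. The EGF effect differed between the lines by -0.30 (adjusted p = 0.074), which did not pass. No member passed for EGF at 1 h by edgeR or DESeq2, where 0.138% of all genes were called. At an unadjusted p under 0.05 there was 1 member, beside 1459 of 24641 genes.

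At 12 h MCL1 was not called with either ligand in either line. The BT474 libraries were then at 476 and 478 CPM with vehicle, 485 and 471 CPM with EGF and 483 and 488 CPM with HRG. In BT474R the EGF libraries lay above vehicle, at 548 and 534 CPM against 502 and 510 CPM at 12 h (0.10, adjusted p = 0.348) and at 548 and 517 CPM against 490.5 and 490.6 CPM at 24 h (0.12, not called). The fall of the effect from 1 to 12 h passed the test in all 4 series, by -0.95 for EGF and -1.12 for HRG in BT474 and by -0.56 and -0.50 in BT474R. In those tests 4 members were called for EGF and 6 for HRG in BT474, against 7.72% and 14.2% of all genes, and 1 and 1 in BT474R, against 4.43% and 0.992%. Among genes at 1 CPM or more these shares were 12.6% and 22.7% in BT474 and 6.96% and 1.61% in BT474R. DESeq2 called 3 and 5 members in BT474 and 1 and 1 in BT474R. From 12 to 24 h no member was called by edgeR or DESeq2. At an unadjusted p under 0.05 there were 0 for EGF and 3 for HRG in BT474, beside 1949 and 2988 of 25146 genes. In BT474R there were 4 and 1, beside 1959 and 1480 of 24287 genes. At the adjusted threshold 0.517% and 2.5% of all genes were called in BT474 and 0.185% and 0.0288% in BT474R. At 24 h MCL1 was slightly below vehicle with HRG in BT474 (408 and 395 CPM against 428 and 449 CPM, log2 fold change -0.15, adjusted p = 0.00136), a call lost without vehicle replicate 2, at -0.11. EGF at 24 h (-0.08, not called) passed without EGF replicate 2, at -0.12.

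**Figure D3:**
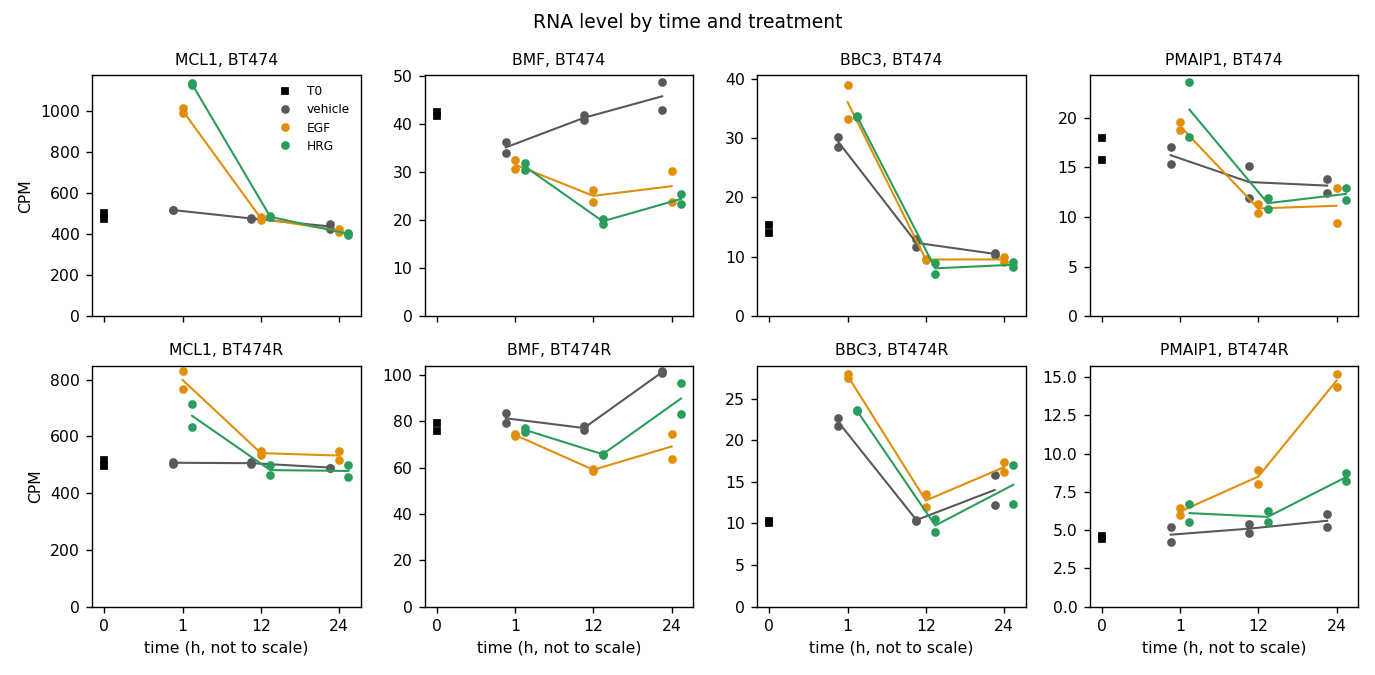
CPM of MCL1, BMF, BBC3 and PMAIP1 (columns) in BT474 (top) and BT474R (bottom) at T0 and after 1, 12 and 24 h, with 1 point per library and lines through the means of 2. MCL1 peaks at 1 h with ligand, BBC3 peaks at 1 h in every treatment, BMF lies below vehicle at 12 and 24 h with EGF in both lines, and PMAIP1 climbs with EGF in BT474R to a mean of 14.8 CPM.

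At the later times, EGF in BT474 had 2 members called at 12 h and 2 at 24 h, where 16% and 16.4% of all genes were, and HRG had 4 and 5, where 25.8% and 24.1% were. Counting genes at 1 CPM or more alone, EGF had 25.6% called at 12 h and 26.1% at 24 h, and HRG had 40.2% and 37.7%. DESeq2 called 2 and 2 members with EGF and 4 and 4 with HRG. In BT474R, EGF had 2 and 3 called (12% and 17.3% of all genes) and HRG 1 and 1 (4.12% and 2.78%). Among genes at 1 CPM or more these shares were 18.2% and 25.9% for EGF and 6.51% and 4.43% for HRG. Over the 3 times, 15 of 60 tests of a member passed in BT474, 2 up and 13 down, and 9 of 60 in BT474R, 5 up and 4 down. In the single comparisons 2.19% to 25.8% of all genes were called in BT474 and 0.169% to 17.3% in BT474R. The directions of all genes were not counted.

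BMF was the member lowered most often, in 7 of 12 ligand comparisons, and its value was below 0 in all 12. In BT474 at 12 h it was at 41.7 and 40.8 CPM with vehicle, 26.2 and 23.8 CPM with EGF and 20.3 and 19.2 CPM with HRG. EGF gave a log2 fold change of -0.74 (SE 0.08, adjusted p = 3.64e-09). HRG gave -1.10 (SE 0.08, adjusted p = 7.66e-14), and neither set of libraries overlapped the vehicle pair. The ligands differed by -0.36 (adjusted p = 0.0143, 1 member called against 2.17% of all genes), a call lost without HRG replicate 1, HRG replicate 2 or EGF replicate 1, with values from -0.39 to -0.29. Of genes at 1 CPM or more, 3.56% were called between the ligands at 12 h. At 24 h the vehicle libraries were at 48.6 and 42.9 CPM, EGF at 30.2 and 23.8 CPM and HRG at 25.4 and 23.3 CPM, with log2 fold changes of -0.75 and -0.92. Between the ligands no member was called at 24 h in BT474 by edgeR or DESeq2, nor at 1 h in BT474R. At an unadjusted p under 0.05 there were 2 members beside 2690 of 25146 genes, and 1 beside 686 of 24287. The shares of all genes called were 0.768% and 0.0494%.

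In BT474R BMF started higher, and it fell less with HRG. At 12 h it was at 76.2 and 77.9 CPM with vehicle, 58.7 and 59.4 CPM with EGF (log2 fold change -0.39, SE 0.07, adjusted p = 0.000607) and 65.5 and 66.0 CPM with HRG (-0.25, SE 0.07, adjusted p = 0.0485). The HRG call was lost when any of the 4 libraries was left out, with values from -0.24 to -0.20. At 24 h it was at 100.7 and 101.8 CPM with vehicle, 74.4 and 63.9 CPM with EGF (-0.55, SE 0.07, adjusted p = 4.68e-06) and 96.5 and 83.1 CPM with HRG (-0.16, adjusted p = 0.283). Without HRG replicate 1 the HRG value was -0.29 and called. The lowest BT474R library with EGF, 58.7 CPM, was above the highest BT474 library of any treatment, 48.6 CPM.

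The HRG effect on BMF differed between the lines at both times, by 0.84 at 12 h (SE 0.11, adjusted p = 7.9e-06) and 0.73 at 24 h (SE 0.11, adjusted p = 3.45e-05), in the direction of a smaller fall in BT474R. At 12 h it was the 1 member called, against 4.07% of all genes, and at 24 h 1 of 2, against 3.33%. Among genes at 1 CPM or more these shares were 6.56% and 5.31%. For EGF the difference was 0.34 at 12 h (adjusted p = 0.154) and 0.20 at 24 h (adjusted p = 0.456), neither called. Within BT474R at 24 h, HRG libraries were above EGF libraries by 0.39 (SE 0.07, adjusted p = 0.000855). Without EGF replicate 2 the value was 0.28 and not called. BMF was 1 of 3 members called, against 5.18% of all genes and 7.79% of those at 1 CPM or more.

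PMAIP1 was the BH3-only gene that rose, and it did so in BT474R. At 12 h it was at 4.79 and 5.39 CPM with vehicle and 8.95 and 8.04 CPM with EGF (log2 fold change 0.74, SE 0.14, adjusted p = 0.000705). At 24 h it was at 5.19 and 6.02 CPM with vehicle, 14.3 and 15.2 CPM with EGF (1.40, SE 0.13, adjusted p = 6.15e-08) and 8.70 and 8.21 CPM with HRG (0.61, SE 0.14, adjusted p = 0.0168). The libraries of each treatment at 24 h were apart from those of the others. The HRG call was lost without vehicle replicate 1, at 0.49, with libraries thinned to equal depth, at 0.55, and with only the libraries compared, at 0.59. The HRG libraries of that group differed most among the pairs, with a median chi-square over genes of 2.56 where sampling noise gives 0.455.

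In BT474 no ligand comparison of PMAIP1 passed, with values from -0.34 to 0.35, and EGF at 24 h gave 9.36 and 12.9 CPM against 13.9 and 12.4 CPM with vehicle. Some of these values passed when 1 library was left out: -0.48 with EGF and -0.42 with HRG at 12 h without vehicle replicate 2, -0.50 with EGF at 24 h without EGF replicate 2, and 0.55 with HRG at 1 h without HRG replicate 1. At 12 h they also passed with only the libraries compared, at -0.34 and -0.27, and with no filter on low counts, at -0.33 and -0.27, as did HRG at 1 h with no filter, at 0.35. The EGF effect differed between the lines by 1.06 at 12 h (SE 0.21, adjusted p = 0.0017) and 1.65 at 24 h (SE 0.20, adjusted p = 3.08e-07). At 12 h 2 members were called in that test and at 24 h 2, against 1.96% and 4.01% of all genes. Among genes at 1 CPM or more these shares were 3.09% and 6.24%. With EGF for 24 h both BT474R libraries were above both BT474 vehicle libraries of that time, a pair of groups that was not tested. HRG stood below EGF in BT474R, by -0.55 at 12 h (adjusted p = 0.0337, 1 member against 1.42% of all genes) and -0.79 at 24 h (adjusted p = 0.000219). The 12 h call was lost without any of its 4 libraries, with values from -0.64 to -0.46. DESeq2, 1 fit of both lines, thinned depth and only the libraries compared also lost it. Among genes at 1 CPM or more 2.17% were called at 12 h.

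BBC3 was lowered in BT474. At 12 h it was at 11.66 and 13.03 CPM with vehicle, 9.60 and 9.46 CPM with EGF (log2 fold change -0.38, SE 0.11, adjusted p = 0.0105) and 8.98 and 7.12 CPM with HRG (-0.66, SE 0.11, adjusted p = 8.79e-06). At 24 h the HRG libraries were at 8.25 and 9.06 CPM against 10.3 and 10.7 CPM (-0.31, SE 0.11, adjusted p = 0.0407). The EGF call was lost without vehicle replicate 2, EGF replicate 1 or EGF replicate 2, with values from -0.38 to -0.30, and the 24 h call without either vehicle library or HRG replicate 1, with values from -0.33 to -0.24. In 1 fit of both lines neither of these calls was kept. DESeq2, thinned depth and only the libraries compared also lost the 24 h call. In BT474R no ligand comparison of BBC3 passed, with values from -0.11 to 0.32, though EGF at 24 h was called without vehicle replicate 2, at 0.47. In BT474 EGF at 1 h gave 0.27 (adjusted p = 0.0581) and was called without EGF replicate 2, at 0.38, with no filter on low counts, at 0.27, and with rows of copies of a gene summed, at 0.29. The EGF effect at 12 h differed between the lines by 0.67 (SE 0.18, adjusted p = 0.0381), but 7 of the 8 libraries involved each removed the call when left out, all except BT474R EGF replicate 2, with values from 0.57 to 0.75. Thinning to equal depth also removed it.

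BIK fell with HRG in BT474, to 14.0 and 15.8 CPM at 12 h against 18.7 and 19.6 CPM with vehicle (-0.38, SE 0.08, adjusted p = 0.000462) and to 12.5 and 12.8 CPM at 24 h against 16.4 and 16.8 CPM (-0.42, SE 0.09, adjusted p = 0.000378). It was not called with EGF or in BT474R. With EGF, the value at 12 h in BT474 (-0.23, adjusted p = 0.0643) passed with only the libraries compared, and that at 24 h in BT474R (-0.23, adjusted p = 0.0539) passed in 1 fit of both lines and with the filterByExpr filter of edgeR. BCL2L11 was level in BT474, where its ligand values lay between -0.01 and 0.08 and none passed. In BT474R it was lower with EGF at 24 h, at 124 and 123 CPM against 145 and 152 CPM with vehicle (-0.27, SE 0.05, adjusted p = 0.000411). That effect differed between the lines (-0.28, SE 0.07, adjusted p = 0.0102), a call lost without BT474 EGF replicate 1, at -0.25. It was also lost with no filter on low counts and with only the libraries compared. In BT474R at 24 h HRG libraries lay above EGF libraries by 0.19 (adjusted p = 0.0211), a call lost without HRG replicate 1, EGF replicate 1 or EGF replicate 2, with values from 0.16 to 0.21.

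BCL2 was slightly lower with ligand in BT474. At 24 h the vehicle libraries were at 57.9 and 58.0 CPM, the EGF libraries at 48.1 and 51.8 CPM (-0.22, SE 0.06, adjusted p = 0.00416) and the HRG libraries at 47.3 and 47.1 CPM (-0.32, SE 0.06, adjusted p = 3.37e-05). HRG at 12 h gave -0.29 (SE 0.06, adjusted p = 0.000107). The EGF call was lost without EGF replicate 1, at -0.16, and EGF at 12 h (-0.13, not called) passed without vehicle replicate 2, at -0.21. In BT474R, with 39 to 93 counts per library, no ligand comparison of BCL2 passed, and HRG at 24 h (0.70) was called without HRG replicate 1, at 1.09. The HRG effect at 24 h was called as different between the lines (0.99, SE 0.26, adjusted p = 0.0243), but the BT474R HRG libraries were at 2.19 and 4.27 CPM, and the value was 0.46 without HRG replicate 2 and 0.79 without vehicle replicate 1, neither called. With only the libraries compared this difference was also not called.

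BCL2L1, HRK and BAX passed in none of their 12 ligand comparisons. BCL2L1 was measured closely, with values from -0.10 to 0.10 on the log2 scale. BAX lay between -0.17 and 0.11. HRK had 3 to 37 counts in every library, and its values from -0.43 to 0.74 were too imprecise to show a change at this depth.

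**Figure D4:**
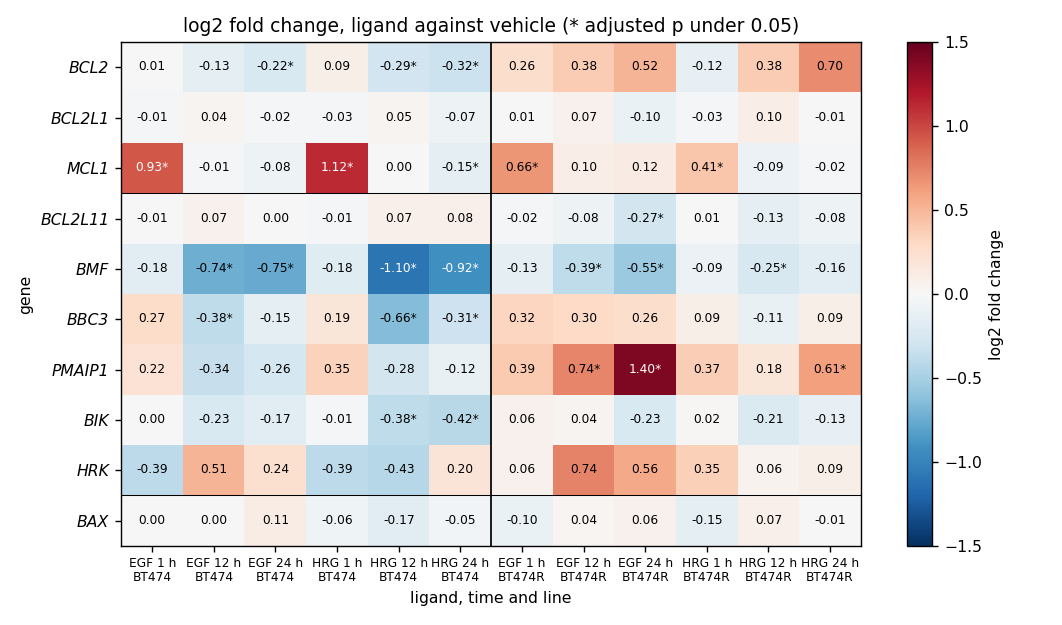
Log2 fold change of each gene (rows) with EGF or HRG against the vehicle of the same time and line (columns), blue for lower and red for higher, with an asterisk for an adjusted p under 0.05. The called values run from -1.10 for BMF with HRG at 12 h in BT474 to 1.40 for PMAIP1 with EGF at 24 h in BT474R, and the MCL1 cells at 1 h hold 0.41 to 1.12.

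The summed CPM of the 3 pro-survival genes was set against the summed CPM of the 6 BH3-only genes in each library, as a description with no test. These sums carry no correction for transcript length, so a long or abundant transcript weighs more, and the ratio serves to compare libraries, not genes. MCL1 made up 69.6% to 87.6% of the summed pro-survival CPM, so the sum follows MCL1. At T0 the ratio was 4.62 and 4.43 in BT474 and 2.11 and 2.18 in BT474R. The pro-survival sums were 680.1 and 602 CPM on average and the BH3-only sums 150.3 and 280.4 CPM. The lower ratio in BT474R thus came with a higher BH3-only sum and a somewhat lower pro-survival sum. BCL2L11 and BMF held most of the BH3-only sum, at 58.9 and 42.0 CPM in BT474 and 163.9 and 77.6 CPM in BT474R. BIK was also higher in BT474R, whereas PMAIP1 and BBC3 were lower. In all 20 groups the BT474R libraries were at 3.40 or less and the BT474 libraries at 4.21 or more.

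With ligand for 1 h the ratio in BT474 was 7.36 and 7.94 with EGF and 8.72 and 8.37 with HRG, against 4.81 and 4.81 with vehicle. In BT474R it was 3.05 and 3.40 with EGF and 2.95 and 2.61 with HRG, against 2.22 and 2.18. At 12 h in BT474 it was 5.44 and 5.65 with EGF and 5.91 and 5.98 with HRG, against 4.63 and 4.80. The pro-survival sum was then 672.5 and 678 CPM on average with ligand and 670.4 CPM with vehicle, and the BH3-only sum 121 and 114 against 142 CPM. The early rise thus went with MCL1 and the later one with the lower BH3-only sum. At 24 h in BT474R the ratio was 2.53 and 2.51 with EGF, 2.10 and 2.03 with HRG and 2.00 and 1.94 with vehicle.

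**Figure D5:**
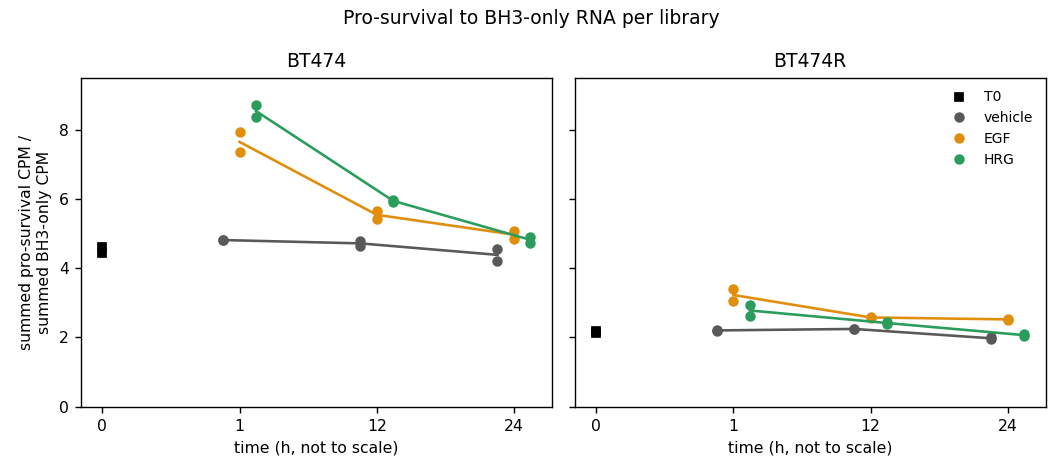
Ratio of summed pro-survival CPM (BCL2, BCL2L1, MCL1) to summed BH3-only CPM (BCL2L11, BMF, BBC3, PMAIP1, BIK, HRK) per library at T0 and by time and treatment, with lines through the means of 2. BT474 peaks at 1 h with HRG at a mean of 8.54, BT474R at 1 h with EGF at 3.22.

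Other genes of the pathway were read from a list of 34: 12 further family members, 13 genes of the cytochrome c and caspase steps and 9 regulators of the members. At T0, 14 of the 34 were higher and 8 lower in BT474R, where 46.9% of all genes and 65.4% of those at 1 CPM or more were called. Over the 6 ligand comparisons of BT474, 50 of 204 tests passed, 34 up and 16 down, and in BT474R 18 of 204, 15 up and 3 down. Between 2.19% and 25.8% of all genes were called in the single comparisons of BT474 and between 0.169% and 17.3% in those of BT474R, and among genes at 1 CPM or more these ranges were 3.48% to 40.2% and 0.256% to 25.9%. The largest called change in each direction was taken from each comparison. At 1 h in BT474 DDIT3 (CHOP, a stress factor that acts on BH3-only genes) was up with EGF (0.66, adjusted p = 6.15e-08) and HRG (0.58, adjusted p = 9.91e-07), and HUWE1, a ubiquitin ligase of MCL1, was down with EGF (-0.19, adjusted p = 0.0123). FOXO3, a transcription factor of BH3-only genes, was lower with EGF at 12 h (-0.29) and 24 h (-0.24) and with HRG at 24 h (-0.31), each with an adjusted p of 9.29e-05 or less.

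FBXW7, another ligase that targets MCL1, went up with EGF at 12 h in BT474 (0.34, adjusted p = 0.00346) and down in BT474R at 12 h (-0.27, adjusted p = 0.00909) and 24 h (-0.46, adjusted p = 5.2e-05). The EGF effect differed between the lines by -0.63 at 12 h (adjusted p = 0.00054) and by -0.36 at 24 h (adjusted p = 0.0686, not called). BIRC3, an inhibitor of apoptosis, rose with EGF in BT474R at 12 h (1.14, adjusted p = 0.00643) and 24 h (1.24, adjusted p = 0.00108) and in BT474 at 24 h (0.60, adjusted p = 0.0479), from means of 1.32 to 2.44 CPM over the libraries compared. With HRG in BT474, CYCS, which encodes cytochrome c, was up at 12 h (0.41) and 24 h (0.38), and CASP9, the caspase of the apoptosome, was down at 12 h (-0.58, adjusted p = 0.000242). ATF4, a stress factor that acts on PMAIP1, was the 1 pathway gene called with HRG at 24 h in BT474R (0.27, adjusted p = 0.0309).

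The genes whose mean levels over the 10 groups of a line ran most like a member's were ranked by Pearson's r over log2 CPM, as a description over 10 points that share libraries. For MCL1 they were SERTAD1, EDN1 and PTGER4 in BT474 (r of 0.99 for each, 13810 genes searched) and EGR2, ZFP36 and JUNB in BT474R (0.96 to 0.97, 13680 genes). For BMF in BT474 they were STON1, HEY2 and SLC2A11, and for BBC3 SRSF5, XPC and CCNG1, of which XPC and CCNG1 are known p53 targets. For PMAIP1 in BT474R they were SSX2IP, CEBPG and OSBPL11 (0.98 to 0.99).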

How the data were processed

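RNA from 40 libraries, 2 for each of 20 groups, was sequenced by the authors as paired reads of poly(A)-selected RNA, trimmed with Trim Galore 0.6.6 and counted per gene on GRCh38 with featureCounts, and the deposited values were raw counts per gene. The strand setting and annotation release were not given in the sources used here. Group membership came from the labels. Counts were tested with edgeR 4.0.16 (quasi-likelihood F test, TMM) in R 4.3.3, 1 fit per line of 20 libraries (25146 and 24287 genes with at least 1 count in 50% of libraries) and 1 fit of 40 libraries (24641 genes) for the lines at T0 and for the difference of ligand effects between lines. P-values were adjusted by Benjamini-Hochberg over all genes tested, with a threshold of 0.05, and SE is the log2 fold change divided by the root of F. Printed CPM use the TMM factors of the fit of 40 libraries, which ran from 0.936 to 1.08. Each fit was tested on simulated data.

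The members, the pathway list and the motifs were chosen with earlier results of these data known. Pathway genes were named as the called gene with the largest change in each direction per ligand comparison, at 1 CPM or more with libraries that did not overlap, and like genes as the top 3 by correlation. Alternatives were DESeq2 1.42.0, its size factors, other filters, a replicate block, thinned depth, summed copy rows (5078 rows repeat a name with a number, none a member), other sets of libraries, and leaving out each library. When 1 library was left out of the fit of both lines, the dispersion trend of all 40 was kept. A search of the proteins for the BH3 motif was not done here.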

Additional observations from a re-analysis of the deposited data

Results flagged for a closer look

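The results below were picked out because the effect of a ligand on a member differed between times or between lines in a test of that difference. Between 12 and 1 h in BT474, the effect of EGF changed by -0.95 on the log2 scale for MCL1, -0.56 for BMF, -0.66 for BBC3 and -0.56 for PMAIP1. The effect of HRG changed by -1.12 for MCL1, -0.92 for BMF, -0.84 for BBC3, -0.63 for PMAIP1, -0.38 for BCL2 and -0.37 for BIK. In BT474R the change was -0.56 with EGF and -0.50 with HRG for MCL1. The PMAIP1 change with EGF in BT474 had an adjusted p of 0.0386 and was lost in 6 of 8 refits without 1 library, with values from -0.61 to -0.38. That with HRG was lost in 4 of 8, from -0.55 to -0.44, and the BIK change in 5 of 8, from -0.40 to -0.27. DESeq2, no filter on low counts and thinned depth each lost the BIK change. DESeq2, 1 fit of both lines, filterByExpr and thinned depth each lost the PMAIP1 change with EGF.

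Between the lines, as the effect in BT474R minus that in BT474, the values were 0.67 for BBC3 and 1.06 for PMAIP1 with EGF at 12 h, -0.28 for BCL2L11 and 1.65 for PMAIP1 with EGF at 24 h, -0.72 for MCL1 with HRG at 1 h, 0.84 for BMF with HRG at 12 h, and 0.99 for BCL2 and 0.73 for BMF with HRG at 24 h. MCL1 and BMF kept their calls whichever library was left out, as did PMAIP1 with EGF, whereas BBC3, BCL2L11 and BCL2 did not.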

How the results depend on the processing

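No result changed direction with a call under any alternative. Of 5560 repeats of a member's comparison, 5367 kept their side of the threshold, 126 lost a call and 67 gained one, and 308 that were never called changed sign. Leaving out 1 library at a time, the number of member tests called ranged from 13 to 20 for ligand against vehicle in BT474 (15 with all libraries), from 7 to 13 in BT474R (9), from 4 to 9 and 4 to 8 for vehicle against T0 (8 and 7), from 1 to 3 and 2 to 6 for HRG against EGF (2 and 4), from 8 to 10 and 2 to 2 for the change of the ligand effect with time (10 and 2), from 7 to 8 for the lines at T0 (7) and from 7 to 12 for the ligand effect between lines (8). Pathway genes called ranged from 37 to 55 in BT474 (50) and from 13 to 27 in BT474R (18). In 1 fit of both lines, 5 member tests passed for vehicle against T0 and 0 for HRG against EGF in BT474. With only the libraries compared, 1 passed for HRG against EGF in BT474 and 0 in BT474R. With no filter on low counts, 7 passed for HRG against EGF in BT474R and 13 for the ligand effect between lines. Ligand calls lost in 1 fit of both lines included MCL1 with HRG and BCL2 with EGF, both at 24 h in BT474. BMF with HRG at 12 h in BT474R was lost there too, and with thinned depth and filterByExpr. DESeq2 lost the BAX and BMF calls at 1 h of vehicle in BT474 and the BIK call at 24 h in BT474R. The causes were not tested.

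With the replicate number as a replicate block, 17 member tests passed for ligand against vehicle in BT474, 9 in BT474R, 9 and 7 for vehicle against T0, 2 and 4 for HRG against EGF, 10 and 2 for the change with time, 7 for the lines at T0 and 8 for the ligand effect between lines, and 54 and 21 pathway tests passed. Among the member tests gained were BBC3 with EGF at 1 h (0.27) and PMAIP1 with EGF at 12 h (-0.35), both in BT474. The numbers are not known to pair the libraries: deviations of libraries with the same number correlated between -0.093 and 0.385 over 12 comparisons, above 0.1 in 3. Those 3 were all at 24 h, at 0.134 with EGF and 0.263 with HRG in BT474 and 0.385 with HRG in BT474R. Depth limited HRK, at 3 to 37 counts, and BCL2 in BT474R, at 39 to 93 counts.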
